A study of Mus musculus with 3 samples.

Results

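The clustered histone genes are the histone genes of the mouse genome that lie side by side in a few dense groups, and here they were taken as every gene on the array whose symbol begins with *Hist1h*, *Hist2h*, *Hist3h* or *Hist4h*. There were 57 such genes of 26840 genes with a symbol, measured by 74 probes of 60 bases on 83 spots. By symbol, 43 genes belonged to the *Hist1* group on chromosome 13 and 10 to *Hist2* on chromosome 3. A further 3 belonged to *Hist3* on chromosome 11, and 1, *Hist4h4*, lay on chromosome 6. By histone class, as the symbol gives it, 6 were H1 genes, 18 were H2A, 14 H2B, 9 H3 and 10 H4 genes. Among them *Hist1h2al* and *Hist3h2bb-ps* carry RefSeq symbols of pseudogenes (*H2af-ps2* and *H2bu1-ps*). The probe of *Hist1h2al* lay at chr13:51295494-51295553, apart from those of the other *Hist1* members. All 57 were matched to a RefSeq gene of GRCm38.p6, which carries newer symbols for them.

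RNA of RAW 264.7 cells, a transformed mouse macrophage line that divides in culture, was hybridised in 1 colour (Cy3) to SurePrint G3 Mouse GE arrays, with 1 array for each of 3 conditions. Cells of the LPS condition received LPS at 50 ng/mL and no bacteria. Cells of the CRL1505 + LPS and CRL1506 + LPS conditions were first kept for 24 h with *L. rhamnosus* CRL1505 or *L. plantarum* CRL1506 at 50000000 cells/mL, were washed, and then received the same LPS. The series' design gives 12 h of LPS and the sample descriptions give 3 h, and all of the cells analysed had LPS, so every ratio is a strain with LPS over LPS alone or over the other strain with LPS. The arrays came from 1 culture condition each with no replicate, so there is no replicate check and no p-value, and fewer cells making a transcript and less of it per cell cannot be told apart. LPS and CRL1506 + LPS were hybridised on the same slide and scanned in the same run, and CRL1505 + LPS on and in another, so strain and slide cannot be told apart in any ratio that involves CRL1505. Of 11 macrophage markers 10 were detected well above background on each of the arrays, the exception being *Mrc1* with either strain, and their summed log2 level lay between 9.37 and 9.66. Among markers of other cells, 3 of 5 for T cells (*Cd3e*, *Cd3d*, *Cd4*), 1 of 4 for B cells and 0 of 8 for epithelial cells and fibroblasts were well above background on all arrays.

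Core histones H2A, H2B, H3 and H4 form the protein spool of the nucleosome, and the linker histone H1 binds where DNA enters and leaves it. The clustered genes supply these proteins when DNA is copied in S phase. Their usual mRNAs are short, come from genes without introns and end just behind a stem-loop in place of a poly(A) tail, the stem-loop being bound by SLBP and the RNA being cut behind it with the help of the U7 small nuclear RNA. Longer, polyadenylated transcripts that run past the stem-loop are also known for many of these genes, above all in cells that leave the cell cycle.

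The stem-loop was found in the probes themselves, and the probes that hold it are shown because they mark where the usual mRNA ends. The search was for a stem of 6 bases that opens with GGC and pairs without mismatch across a loop of 4 bases that opens with TTT, in the sense of the transcript. It occurred in 6 of 56605 gene probes on the array (0.0106%), all of them probes of clustered histone genes, and on the opposite strand in 0. In the following stretches of 30 bases, 5′ to 3′, the capitals mark the stem and the loop.

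*Hist1h3a* (chr13:23853756-23853815, minus strand): aattaaccaaaGGCTCTTTTCAGAGCCaca
*Hist1h3i* (chr13:21874784-21874843, minus strand): ataacaaaaGGCTCTTTTCAGAGCCccctc
*Hist1h2bf* (chr13:23665629-23665688, minus strand): taacccaaaGGCTCTTTTCAGAGCCaccta
*Hist1h4m* (chr13:21903960-21904019, plus strand): caactaaaGGCCCTTTTCAGGGCCatccaa
*Hist2h2bb* (chr3:96074056-96074115, plus strand): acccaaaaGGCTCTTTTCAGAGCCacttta
*Hist2h2aa1* (chr3:96049949-96050005, plus strand): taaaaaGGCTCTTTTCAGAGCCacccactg

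The coordinates are those of the whole probes on mm9, as the array files give them. In the first 5 probes the stem-loop was the last feature, with 3 to 6 bases behind it, so that these probes stopped where the usual mRNA stops. In the probe of *Hist2h2aa1* 38 bases followed it.

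Each probe was therefore placed by its start in the transcript it was designed for and by the length RefSeq gives its gene. For a gene with introns that length may be a span of the genome, as may be so for the 37455 bases of *Hist1h2be*. For some probes the transcript was an Ensembl or GenBank model, whose start may differ from that of RefSeq. Distances from the end are approximate for these probes. A probe was called within the mRNA if its last base lay at or before that RefSeq 3′ end, and past the end otherwise. A probe within the mRNA can also read a longer transcript of its gene, so its ratio is not one of the usual mRNA alone. The labelling primed on poly(A) tails, which the usual mRNA lacks, and its part in the values was not tested. For genes given over 1000 bases the median length of the other genes of the class was used. This gave 47 probes within and 27 past the end. For 8 of the 27, in *Hist1h2al*, *Hist1h2bc*, *Hist1h2be*, *Hist1h2bp*, *Hist1h2bq* and *Hist2h2be*, the end is that class median. These probes stop short of the longer length that RefSeq gives. The division was made after the values were seen, and no test is attached to it. Of the probes past the end 8 were well above background on no array, and of those within 1.

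With CRL1505 + LPS, transcripts of clustered histone genes were lower than with LPS alone in most members. Each gene was represented by its brightest probe without an outlier spot, levels are log2 processed signals relative to the 75th percentile of the array, and a gene was counted as changed at 2-fold or more. Of 53 members that could be compared, 37 were at least 2-fold lower and 1 was at least 2-fold higher, beside 8.41% of all 15585 genes compared that were at least 2-fold lower and 9.9% that were at least 2-fold higher. The median log2 ratio of the members was -1.55, which is 2.92-fold lower, while that of all genes was 0.01. The remaining 4 members, *Hist1h2ac*, *Hist1h2al*, *Hist1h4a* and *Hist3h2bb-ps*, were well above background on no array. The members did not all go the same way, and their ratios differed with the position of the probe.

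Among probes within the mRNA 41 of 46 were at least 2-fold lower with CRL1505 + LPS and 0 were at least 2-fold higher, with a median of -1.70. Of all 29785 probes compared on the array 7.69% were at least 2-fold lower and 9.36% at least 2-fold higher. Among probes past the end 2 of 19 were at least 2-fold lower and 1 was at least 2-fold higher, shares close to those of all probes, and 13 of 19 had a ratio above 0, with a median of 0.38. When the arrays were scaled to their spike-in probes 7 of 19 were above 0 and the median turned to -0.13, so the direction of this group against LPS depends on the scaling. The 12 compared probes past an end that RefSeq itself gives had a median of 0.49, with 10 above 0, or 5 with spike-in scaling. The 10 compared probes that ended up to 400 bases past the end lay between 0.22 and 1.56, whereas those farther out lay between -1.496 and 0.51, with 3 of 9 above 0. With spike-in scaling 7 of the 10 and 0 of the 9 were above 0. The end was a class median for 2 of the 10 and for 5 of the 9. Those 5 had a median of -0.78, with 1 above 0. The 4 far probes past an end that RefSeq gives had a median of -0.07, with 2 above 0. Distance is thus mixed with the way the end was set. The limit of 400 bases, like the division itself, was drawn after the values were seen. Of the probes printed above, the 5 that end in the stem-loop had log2 ratios of -2.04 (*Hist1h3a*), -2.46 (*Hist1h3i*), -2.88 (*Hist1h2bf*), -1.28 (*Hist1h4m*) and -2.45 (*Hist2h2bb*), and the 1 that runs on behind it, *Hist2h2aa1*, had 1.56.

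**Figure D1:**
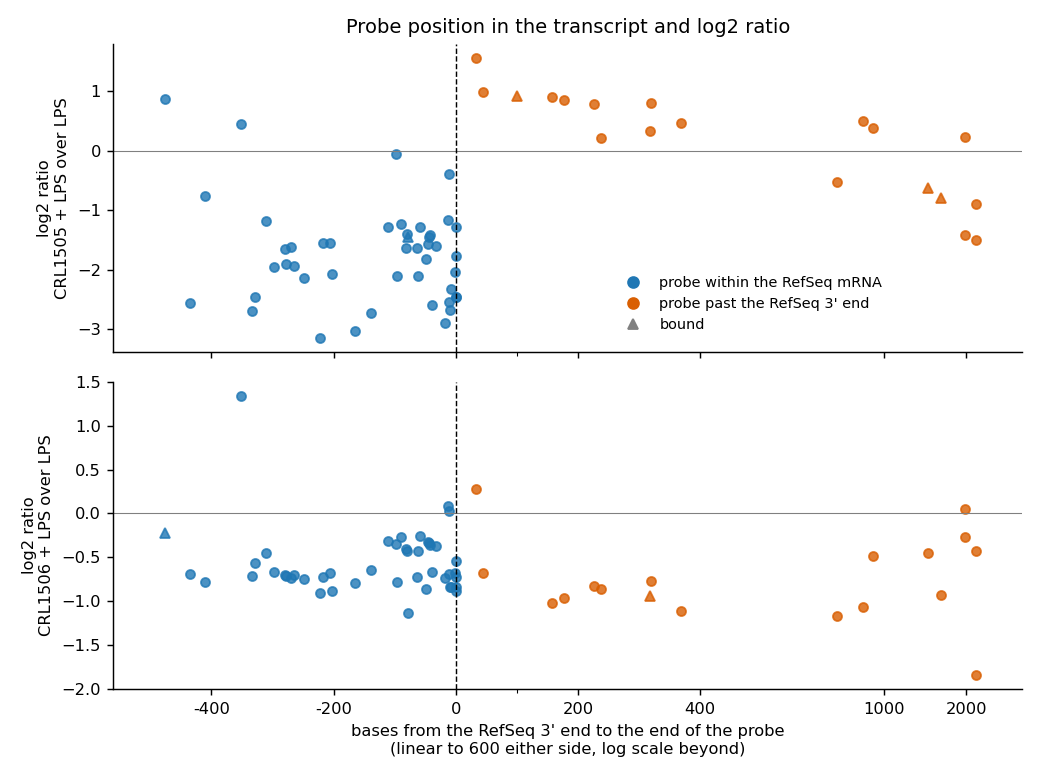
Log2 ratio of each clustered histone probe (vertical axis) against the distance in bases from the RefSeq 3′ end of the gene, or the class median length for the 8 probes named above, to the end of the probe (horizontal axis, linear near the end and log scale farther out), for CRL1505 + LPS over LPS (top) and CRL1506 + LPS over LPS (bottom). Triangles are bounds, for probes not well above background on 1 side. In the top panel the median is -1.70 left of the dashed line and 0.38 right of it (-0.13 with spike-in scaling), and in the bottom panel it is -0.68 and -0.85.

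The 6 genes with a compared probe on each side of the end gave the comparison inside 1 gene, where a shift of a whole array cancels. In all 6 the probe past the end had the higher ratio with CRL1505 + LPS, by a median of 2.18 on the log2 scale. A difference between arrays that varies with brightness does not cancel, and the probes of a gene could differ in level. With LPS the log2 levels within and past the end were 2.80 and -2.12 for *Hist1h1d*, and 2.90 and 3.07 for *Hist1h1c*. The SD between probes of a gene, a median over all genes with several probes well above background on all arrays, was 0.23. It is an SD of single ratios and not of a difference. Over 10 clustered histone genes with several such probes it was 0.82, a value that includes pairs across the end.

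*Hist3h2a*, an H2A gene, was measured by a probe in its coding part (chr11:58768387-58768446, plus strand), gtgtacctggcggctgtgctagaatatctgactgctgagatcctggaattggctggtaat, and by a probe 567 bases downstream. The coding probe had log2 levels of 6.82 with LPS, 4.68 with CRL1505 + LPS and 6.08 with CRL1506 + LPS. The downstream probe had 2.77, 3.58 and 1.999. CRL1505 + LPS was thus the lowest array for the coding probe (log2 ratio to LPS -2.14) and the highest for the downstream probe (0.81). *Hist2h2bb*, an H2B gene, gave 4.38, 1.93 and 3.65 with the probe that ends in the stem-loop shown above, and 1.40, 1.78 and 0.92 with a probe 915 bases past the end. That distance is counted in the target transcript, and on mm9 the 2 probes start 8698 bases apart, so this pair is not contiguous in the genome. Without it the median difference between the probes of a gene was 2.13 over 5 genes. Its ratios with CRL1505 + LPS were -2.45 and 0.38, again of opposite sign, although 0.38 turns negative with spike-in scaling.

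The H4 genes *Hist1h4j* and *Hist1h4i* had ratios of -1.90 and -1.18 within the mRNA and of 0.33 and 0.22 past its end, the latter turning to -0.18 and -0.29 with spike-in scaling. *Hist1h4j* ran from 3.19 with LPS to 1.29 with CRL1505 + LPS and 2.48 with CRL1506 + LPS by the probe within, and its downstream probe, at -3.46, -3.13 and -5.19, was not well above background on the CRL1506 array. The linker histone genes *Hist1h1c* and *Hist1h1d* stayed below LPS on both sides of the end, with -2.53 and -3.02 within and -0.52 and -0.89 past it. The brighter probe of *Hist1h1c* is the one past the end, so that this gene alone of the H1 class is not counted as 2-fold lower.

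**Figure D2:**
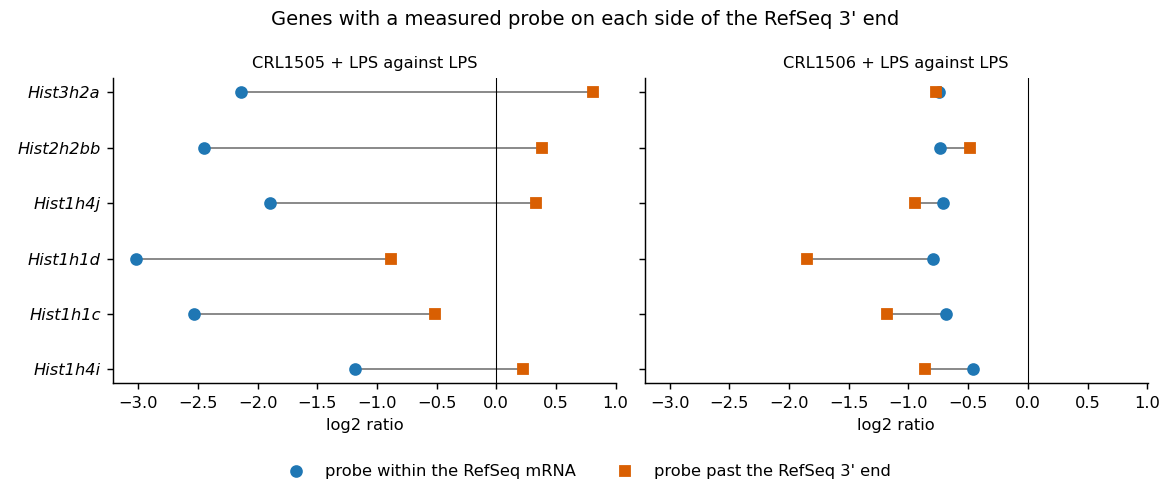
Log2 ratios against LPS of the 6 genes measured on each side of the RefSeq 3′ end, for CRL1505 + LPS (left) and CRL1506 + LPS (right); circles are probes within the mRNA, squares are probes past its end, and a line joins the probes of a gene. With CRL1505 + LPS every square lies to the right of its circle, by a median of 2.18, and with CRL1506 + LPS 1 of 6 does.

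The linker histones held some of the lowest ratios. *Hist1h1b* (RefSeq *H1f5*), the member with the lowest ratio, was read by the coding probe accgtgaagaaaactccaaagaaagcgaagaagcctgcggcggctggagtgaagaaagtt at chr13:21871923-21871982 (minus strand). Its log2 levels were 5.28 with LPS, 2.14 with CRL1505 + LPS and 4.37 with CRL1506 + LPS, which makes the ratio to LPS -3.14 on the log2 scale with CRL1505 + LPS and -0.91 with CRL1506 + LPS. CRL1505 + LPS was the lowest array here, and CRL1506 + LPS lay between it and LPS. The same order held for *Hist1h1d* (2.80, -0.22 and 2.002), *Hist1h1a* (1.99, -0.70 and 1.27) and *Hist1h1e* (5.23, 3.12 and 4.80). Over the 6 H1 genes the median was -2.40 with CRL1505 + LPS and -0.76 with CRL1506 + LPS. *Hist1h1t*, the testis H1, was dim and gave -1.17 and 0.08.

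Among H2A genes 13 of 16 compared members were at least 2-fold lower with CRL1505 + LPS. *Hist1h2ab* had the lowest ratio of this class (-2.67), with log2 levels of 7.56 on the LPS array, 4.89 on the CRL1505 array and 6.72 on the CRL1506 array. *Hist1h2ai* had 3.15, 0.83 and 2.31. For 9 H2A genes, *Hist1h2aa*, *af*, *ag*, *ah*, *ak*, *an* and *ao*, *Hist2h2aa2* and *Hist2h2ac*, the probes shared runs of at least 25 bases, and 5 of them held the same coding stretch, aggccgtgctgctgcccaagaagaccgaga. A probe of the unclustered *H2afj* shares 29 bases with that of *Hist1h2aa*, so none of these 9 can be read apart from its copies. Their ratios lay in a narrow band, from -1.63 to -1.23 with CRL1505 + LPS and from -0.43 to -0.26 with CRL1506 + LPS, less than for *Hist1h2ab*. The brightest, *Hist1h2ah*, had 8.98, 7.54 and 8.64, and *Hist1h2an* had 8.42, 6.80 and 8.01.

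The H2A exceptions were *Hist2h2aa1* and *Hist1h2ae*, read past the end of the mRNA, and *Hist1h2ad*, read within it. *Hist2h2aa1*, whose probe runs 33 bases past the RefSeq end and holds the stem-loop near its start, had 1.29 with LPS, 2.85 with CRL1505 + LPS and 1.57 with CRL1506 + LPS. It was the 1 member at least 2-fold higher with CRL1505 + LPS (log2 ratio 1.56). *Hist1h2ae*, 44 bases past the end, had -2.43, -1.44 and -3.11, so that it was high with CRL1505 + LPS and low with CRL1506 + LPS. *Hist1h2ad*, read at the first base of its mRNA by a dim spot that was uneven on the LPS and CRL1505 arrays, gave 0.87 with CRL1505 + LPS.

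H2B genes were the most divided class, with 6 of 13 compared members at least 2-fold lower with CRL1505 + LPS. *Hist1h2bf*, whose probe ends in the stem-loop, had 3.20 with LPS, 0.31 with CRL1505 + LPS and 2.46 with CRL1506 + LPS. *Hist1h2bm*, read in its coding part, had 4.56, 2.92 and 3.85. Both were lowest with CRL1505 + LPS. *Hist1h2bc* and *Hist1h2bg* are read 227 and 177 bases past the end of the usual mRNA and showed the reverse. For *Hist1h2bc* that end is the class median, because RefSeq gives this gene a length of 8282 bases. *Hist1h2bc* had 3.91 with LPS, 4.70 with CRL1505 + LPS and 3.07 with CRL1506 + LPS. *Hist1h2bg* had -1.82, -0.96 and -2.79. For these genes CRL1505 + LPS was the highest array and CRL1506 + LPS the lowest, in place of the order seen within the mRNAs. *Hist2h2be*, for which RefSeq gives a length of 2667 bases, was read near the end of that length. It was lower by both of its probes, with ratios of -1.41 and -1.496. These are the 2 probes past the end that were at least 2-fold lower.

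In the H3 class 6 of 9 members were at least 2-fold lower with CRL1505 + LPS. *Hist2h3b* had 4.36 with LPS, 1.64 with CRL1505 + LPS and 3.72 with CRL1506 + LPS. *Hist1h3c* had 5.50, 2.91 and 4.83, and *Hist1h3f* had 0.98, -1.58 and 0.29. *Hist1h3i*, *Hist1h3a* and *Hist1h3g*, whose probes end within 2 bases of the mRNA's end, gave ratios of -2.46, -2.04 and -1.76. The 3 H3 members not lower were *Hist2h3c1* and *Hist2h3c2*, read past the end (0.51 and 0.48, both below 0 with spike-in scaling), and *Hist1h3d*. *Hist1h3d* was the brightest H3 probe and nearly level on the 3 arrays, at 7.21, 7.16 and 6.85, although it lies within the mRNA.

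Among H4 genes, which encode the same protein from many copies, 7 of 9 compared members were at least 2-fold lower with CRL1505 + LPS. *Hist1h4k* had 7.42 with LPS, 5.61 with CRL1505 + LPS and 6.57 with CRL1506 + LPS. *Hist2h4* had 7.18, 5.08 and 6.40, and *Hist4h4* had 5.22, 3.15 and 4.34. These H4 genes of chromosomes 13, 3 and 6 were thus in the same order, lowest with CRL1505 + LPS. *Hist1h4d* was the 1 member spotted repeatedly, and over 9 spots its other probe gave a log2 ratio of -1.63 ± 0.04 (SD over spots, n = 9) with CRL1505 + LPS and -0.72 ± 0.02 with CRL1506 + LPS, a spread that describes 1 hybridisation. *Hist1h4h*, a dim probe in the first 30 bases of its mRNA, was the 1 member at least 2-fold higher with CRL1506 + LPS (-2.99, -2.53 and -1.64). In all, 4 probes start in the first 30 bases of their transcripts, and of the 3 that could be compared 0 were 2-fold lower with CRL1505 + LPS.

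The other members had smaller ratios or were dim. *Hist1h2ba*, the testis H2B, and *Hist1h2bb* were each 2-fold lower with CRL1505 + LPS, both with a ratio of -1.55, and *Hist1h4c* gave -1.62. The 5 compared probes within the mRNA that were not 2-fold lower with this strain were those of *Hist1h3d* (-0.04), *Hist1h2bn* (-0.76), *Hist3h2ba* (-0.39), *Hist1h4h* (0.46, below 0 with spike-in scaling) and *Hist1h2ad* (0.87). *Hist1h2bn*, read from base 7 of its mRNA, had 3.07 with LPS, 2.31 with CRL1505 + LPS and 2.28 with CRL1506 + LPS, so that the strains did not separate. *Hist2h2ab* was not well above background with CRL1505 + LPS and was lower there by at least 2.73-fold. Of the H2B genes with long RefSeq models *Hist1h2be* gave 0.23 by its brighter probe (-0.28 with spike-in scaling), and *Hist1h2bp* and *Hist1h2bq*, each not well above background on 1 or more arrays, gave bounds of 0.92 and -0.62.

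**Figure D3:**
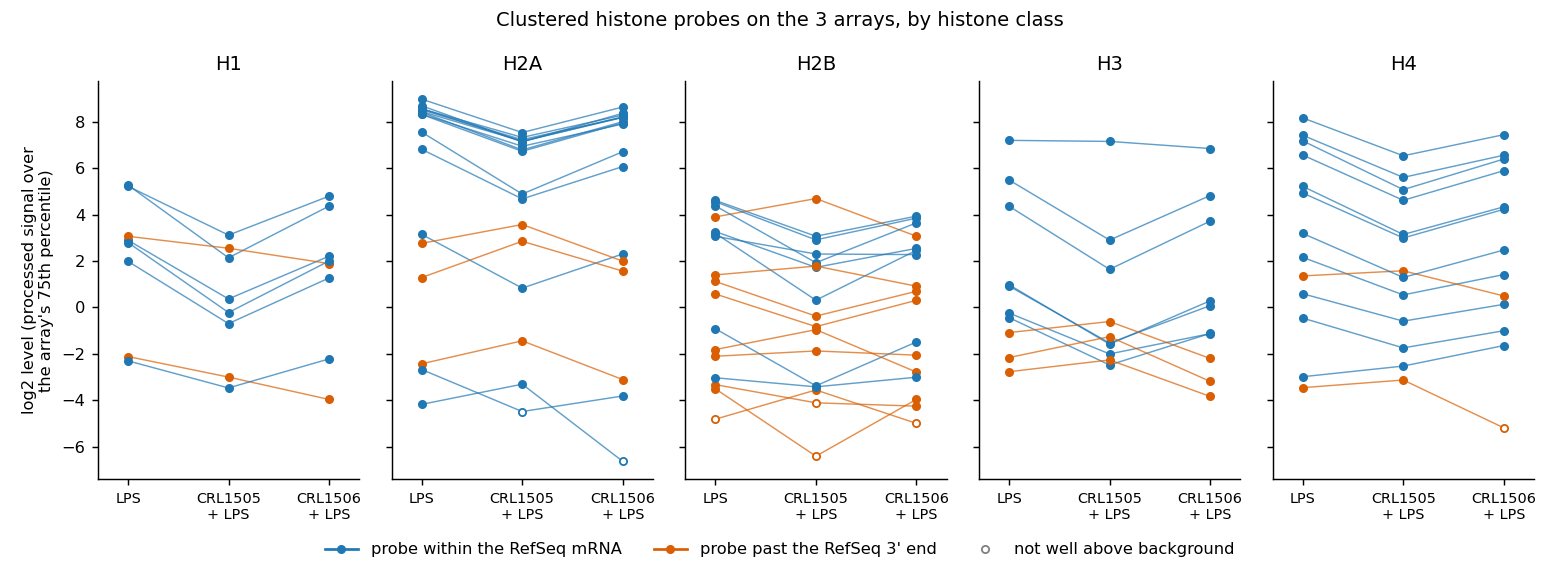
Log2 level of each clustered histone probe on the 3 arrays (vertical axis, processed signal over the array's 75th percentile), by histone class. A line joins the values of a probe, open points were not well above background, and probes well above background on no array are left out. Most lines of probes within the mRNA dip at CRL1505 + LPS, from 5.28 to 2.14 for *Hist1h1b*, and several of those past its end do not, as from 3.91 to 4.70 for *Hist1h2bc*.

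With CRL1506 + LPS most clustered histone genes lay below LPS by a small amount, with class medians from -0.36 for H2A to -0.76 for H1. Of 52 members compared, 47 (90.4%) had a ratio below 0, beside 57.3% of all 16271 genes, and the median was -0.69 against -0.06 for all genes. At least 2-fold lower were 4 members (7.69%) and at least 2-fold higher 1, beside 3.53% and 5.67% of all genes. The 4 were *Hist1h1c*, *Hist2h3c1*, *Hist2h3c2* and *Hist2h2ab*, and of these *Hist2h2ab* alone was read within the mRNA. With this strain the position of the probe made little difference to the direction, since 43 of 46 probes within the mRNA and 16 of 18 past its end were below 0, with medians of -0.68 and -0.85. At least 2-fold lower were 1 of 46 and 5 of 18 probes and at least 2-fold higher 1 and 0, beside 2.99% and 8.95% of all 31861 probes. This comparison was made on a single slide.

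Set directly against each other, CRL1505 + LPS was below CRL1506 + LPS in 40 of 53 members, at least 2-fold in 26 and at least 2-fold above it in 8. Of all 15730 genes compared 7.44% were at least 2-fold lower and 8.96% at least 2-fold higher. Within the mRNA 28 of 46 probes were at least 2-fold lower (10.8% of all 30761 probes) and 1 was higher, and past its end 10 of 18 were at least 2-fold higher (7.8% of all probes) and 2 were lower. The medians were -1.20 and 1.18, so most probes of the 2 positions differed in direction between the strains. Exceptions were 3 of 46 within the mRNA, above 0, and 3 of 18 past its end, below 0. The division followed the values, and CRL1505 + LPS was on another slide. The lowest ratios were those of *Hist1h1b* (-2.23), *Hist1h1d* (-2.22) and *Hist1h2bf* (-2.15), and the highest that of *Hist1h2bg* (1.83).

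**Figure D4:**
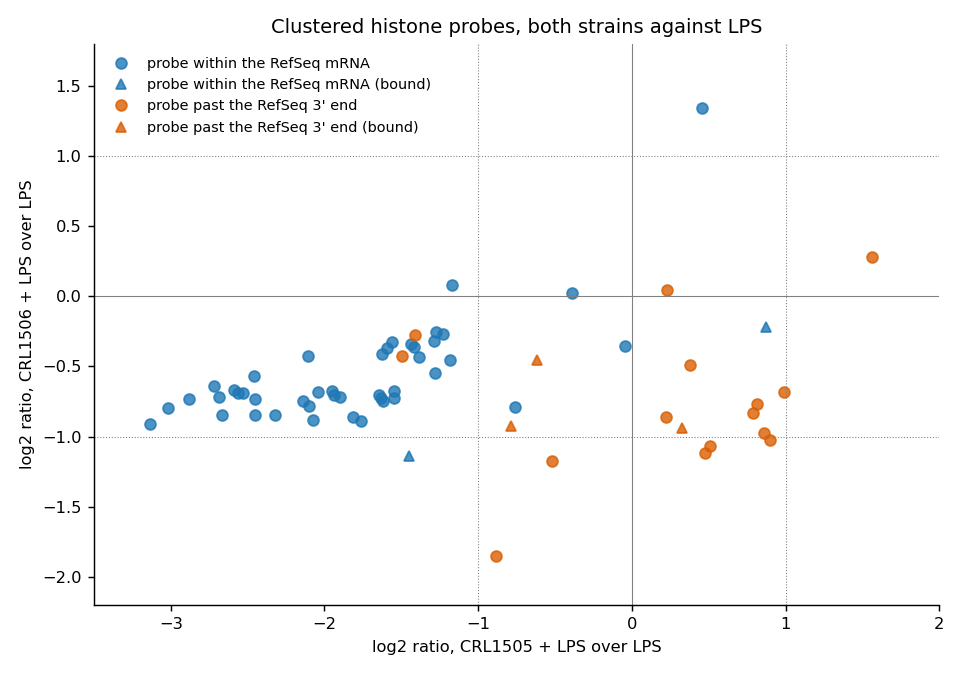
Log2 ratio to LPS of each clustered histone probe with CRL1506 + LPS (vertical axis) against that with CRL1505 + LPS (horizontal axis); dotted lines mark 2-fold, triangles have a bound on 1 axis, and both axes share the LPS array. Probes within the mRNA fill the left of the plot, with medians of -1.70 and -0.68, and most of those past its end lie at the lower right, with medians of 0.38 (-0.13 with spike-in scaling) and -0.85.

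The promoters of these genes were examined for the letters TATAAA (the TATA box), CCAAT, ATTTGCAT (the octamer known from H2B promoters) and AAACACA (known from H1 promoters), on both strands of the 250 bases before the start in RefSeq GRCm38.p6. A promoter of that length was found for 50 members, 1 of them with 2 promoters. CCAAT occurred in 84.3% of the 51 promoters and in 33.8% of all 32851 promoters, and TATAAA in 47.1% and 12.4%. ATTTGCAT occurred in 25.5% and 1.60%, in H2A and H2B promoters only, and AAACACA in 17.6% and 6.25%, with 5 of 6 H1 promoters holding it. A match is a description and no site. Several H2A and H2B promoters overlap each other, as do those of *Hist1h2aa* and *Hist1h2ba* and those of *Hist1h2ae* and *Hist1h2bg*. With both strands searched, a match in the overlap counts for each gene, so the 51 promoters are not separate sequences. The promoters of *Hist1h1b*, the member with the lowest ratio, and of *Hist2h2bb*, a gene measured on each side of its end, are shown with matches in capitals.

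*Hist1h1b* (chr13:21780626-21780875, minus strand, GRCm38.p6): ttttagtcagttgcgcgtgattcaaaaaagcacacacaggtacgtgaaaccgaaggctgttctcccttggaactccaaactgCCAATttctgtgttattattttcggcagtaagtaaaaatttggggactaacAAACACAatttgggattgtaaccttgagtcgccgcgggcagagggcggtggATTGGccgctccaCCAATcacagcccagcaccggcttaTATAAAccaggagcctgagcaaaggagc
*Hist2h2bb* (chr3:96269450-96269699, plus strand, GRCm38.p6): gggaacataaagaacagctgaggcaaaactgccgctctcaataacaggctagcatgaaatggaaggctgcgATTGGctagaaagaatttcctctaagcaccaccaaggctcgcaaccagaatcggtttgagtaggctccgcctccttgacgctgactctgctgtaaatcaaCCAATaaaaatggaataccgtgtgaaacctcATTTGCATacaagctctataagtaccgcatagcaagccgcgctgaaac

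Genes around histone supply were counted from fixed lists. Of 30 genes of S-phase DNA synthesis 17 were at least 2-fold lower with CRL1505 + LPS and 0 were higher, with a median of -1.20, beside 8.41% of all genes lower and 9.9% higher, and with CRL1506 + LPS 0 passed 2-fold, with a median of -0.28. *Tk1*, the salvage thymidine kinase, had 3.81 with LPS, 0.77 with CRL1505 + LPS and 3.23 with CRL1506 + LPS, the lowest ratio of the list, and *Tyms*, thymidylate synthase, had the highest at 0.71. The list moved in the same direction as the histone probes within the mRNA and by a smaller median.

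Of 23 compared genes for its transcription, 3′ cutting and decay 2 (8.70%) were at least 2-fold lower with CRL1505 + LPS and 1 was higher, with a median of -0.25, and the share lower was close to the 8.41% of all genes. *Ccne1*, the cyclin that drives entry into S phase, had the lowest ratio (-2.32) and *Lsm11*, a subunit of the U7 particle, the highest (1.04). *Slbp*, which binds the stem-loop, had -0.46, -1.37 and -0.75 on the 3 arrays, a ratio of -0.91. With CRL1506 + LPS 0 of 24 passed 2-fold.

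Of 23 compared histone chaperones 4 (17.4%, beside 8.41% of all genes) were at least 2-fold lower and 1 was higher with CRL1505 + LPS, with a median of -0.20. *Chaf1b*, a subunit of the complex that loads new H3 and H4 behind the replication fork, had the lowest ratio (-1.88), and *Daxx*, a chaperone of the H3.3 variant, the highest (1.82). Histone genes outside the clusters had a median of -0.45 over 12 compared genes. At least 2-fold lower was 1 (8.33%, close to the 8.41% of all genes), *H2afj* (-1.19), which shares probe sequence with the clustered H2A genes as given above. *H3f3a*, a gene of the H3.3 variant that is made throughout the cell cycle, had the highest ratio, 0.66. Of 12 genes of differentiation and G0 1 (8.33%) was at least 2-fold lower with CRL1505 + LPS, close to the 8.41% of all genes. The median of this list was 0.16 against -0.53 with CRL1506 + LPS. Its highest and lowest ratios with CRL1505 + LPS were those of *Gadd45b* (0.72) and *Rbl2* (-1.46).

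**Figure D5:**
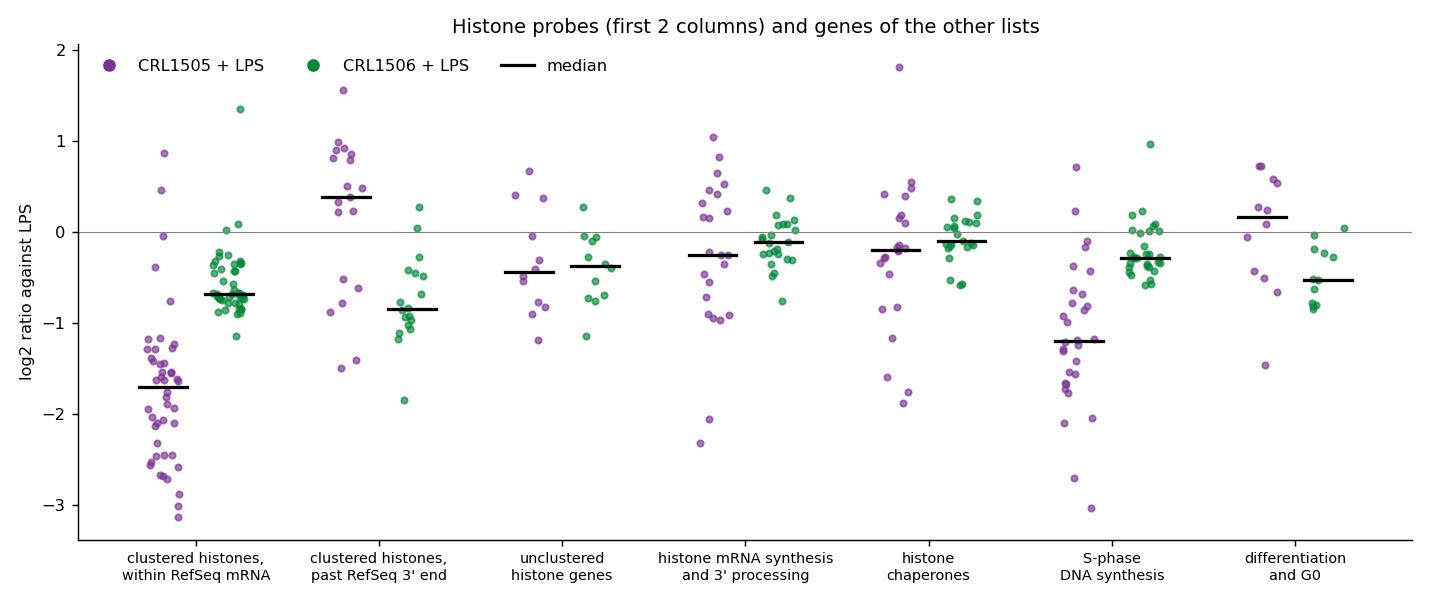
Log2 ratios against LPS for clustered histone probes within the mRNA and past its end (first 2 columns) and for genes of 5 other lists, with CRL1505 + LPS and CRL1506 + LPS side by side; points are probes or genes and bars are medians. With CRL1505 + LPS the medians are -1.70 and 0.38 for the histone probes (-0.13 for the latter with spike-in scaling) and -1.20 for S-phase DNA synthesis.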

How the data were processed

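For each of the 3 arrays the authors deposited spot intensities of Agilent Feature Extraction (version 12.0.3.1 in the file headers), background-subtracted and not normalized between arrays, and a table of log2 values that the authors had normalized between arrays (median 6.77 on each). RNA had been labelled with the Low Input Quick Amp Labeling Kit, which primes on poly(A) tails, and its part in the values was not tested. From the log2 processed intensity of a spot the 75th percentile over gene spots was subtracted (signals of 743.1, 517.0 and 697.9 for LPS, CRL1505 and CRL1506). Outlier spots were left out. A gene's brightest probe, without an outlier spot where possible, stood for it. A side not well above background was set to the higher of its own value and the lowest value well above background, which makes the ratio a bound, and a bound of the wrong sign gave no ratio. With 1 array per condition precision is limited by the number of arrays, and no test was run. Named genes were up to 25 members with the largest ratios, of 47 that passed 2-fold in any comparison, and the brightest of each class by mean log2 level over the arrays, and probe pairs and exceptions were added after their values were seen. The members and lists were chosen with earlier results of these data known. Alternatives covered scaling, background, the deposited table, dim, uneven and outlier spots, the choice of probe, shared probe sequence, GC content and thresholds. Python 3.11.15 with pandas 2.3.3 and R 4.3.3 with limma 3.58.1 were used, and the procedure was tested on simulated data. The simulation held no bounds and no outlier spots. Apart from the changes put in, its arrays differed only by a shift and random noise.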

Additional observations from a re-analysis of the deposited data

Results flagged for a closer look

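In 8 probes of 7 genes with measured values on every array the strains lay on opposite sides of LPS, each by more than 0.32, the largest median SD over probes of the same gene among the comparisons. The downstream probe of *Hist1h4j* also did, at 0.33 and a bound of -0.94, but was not well above background with CRL1506 + LPS and is not counted. All 8 are probes past the end of the usual mRNA, higher with CRL1505 + LPS and lower with CRL1506 + LPS. For *Hist1h2bc* that end is a class median in place of its longer RefSeq length. The difference between the strains on the log2 scale was 1.93 and 1.59 for the probes of *Hist2h3c2* that start at bases 746 and 957, 1.57 for *Hist2h3c1*, 1.58 for the downstream probe of *Hist3h2a*, 1.67 for *Hist1h2ae*, 1.83 for *Hist1h2bg*, 1.62 for *Hist1h2bc* and 0.87 for the downstream probe of *Hist2h2bb*. With 1 array per condition these differences were not tested. Both strains are set against the same LPS array, and CRL1505 + LPS lay on another slide. When the arrays were scaled on the spike-in probes instead, 5 of the 8 probes still lay on opposite sides of LPS and 3 did not, while all 8 were still higher with CRL1505 + LPS than with CRL1506 + LPS.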

How the results depend on the processing

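No replicate could be left out, and no paired analysis was possible because each condition had 1 array. Under the 14 settings planned without a change of threshold, the median ratio of the members stayed between -2.05 and -1.25 for CRL1505, between -0.89 and -0.59 for CRL1506 and between -1.35 and -0.52 for CRL1505 against CRL1506. Shifting by the array median gave medians of -1.25, -0.89 and -0.52, with those of all genes at 0.33, -0.26 and 0.57, and spike-in scaling gave -2.05 for CRL1505 and -1.35 between the strains, with all genes at -0.48 and -0.35. The count at least 2-fold lower with CRL1505 ranged from 27 to 40, and was 16 at 4-fold. The 1 member higher with CRL1505 became 6 with the median shift, 3 with quantile normalization or without the filter on dim probes, 5 with cyclic loess, 6 at 1.5-fold and 0 at 4-fold. For CRL1506 the 4 lower members became 14 with the median shift, 8 with spike-in scaling, 1 with normexp or the deposited table, 32 at 1.5-fold and 0 at 4-fold, and the 1 higher became 0 with normexp, with the deposited table and at 4-fold. Between the strains the 8 higher ranged from 5, with spike-in scaling, to 10, and became 0 at 4-fold. The 26 lower ranged from 11, with the median shift, to 37, and became 4 at 4-fold. Of settings chosen after seeing the data, probes within the mRNA alone gave 0 members higher with CRL1505, 1 lower with CRL1506 and 1 higher between the strains, and the most downstream probe of each gene gave 0 higher with CRL1505. That setting turned the ratio of *Hist2h2bb* (0.38), *Hist3h2a* (0.81) and *Hist1h4j* (0.33) with CRL1505, and between the strains of these (0.87, 1.58 and 1.27) and of *Hist1h1d* (0.96). Averaging the probes of a gene turned *Hist3h2a* (0.092) and *Hist1h4j* (0.044) between the strains, and leaving out probes that share sequence turned *Hist1h4j* (0.33 with CRL1505 and 1.27 between the strains), since a downstream probe then enters. Leaving out the members given a class median length left 36 lower and 1 higher of 48 with CRL1505. In all settings that hold both kinds, probes past the end had the higher median with CRL1505. Several settings could not change this order. A shift of a whole array moves both medians alike, and averaging the probes of a gene leaves single probes as they are. Keeping outlier spots left both medians unchanged. The division by position itself was made after the values were seen. Spots near background limit the probes past the end, of which 8 of 27 gave no ratio.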
